A study of Mus musculus with 6 samples.

Results

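The genes that carry glucose into the cell, break it down by glycolysis, divert it through the pentose phosphate pathway and move pyruvate and lactate were followed in CD4+ T cells treated with idelalisib, a drug that blocks the p110 delta form of phosphoinositide 3-kinase (PI3K). They were chosen by function, as 39 named genes, and all 39 were found by symbol among the 54532 genes of the count table. Of these, 37 had enough counts to be tested. The other two were Fbp1, a gluconeogenic phosphatase gene with 0 counts in every library, and Hk3, a hexokinase gene with 8, 2 and 8 counts in the control and 12, 5 and 7 in the idelalisib libraries. Cells came from spleens of C57BL/6 mice and were cultured under T helper 1 (Th1) conditions for 72 h, without further treatment (control) or with idelalisib. Each group had 3 libraries, labelled as biological replicates. The labels do not say whether replicates were separate mice, so p-values reflect only how much these cultures varied, and that variation may be technical. The dose, the solvent, whether control cultures received it, and the age and sex of the mice were not given in the sources used here.

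As background, glucose enters T cells through GLUT transporters, is trapped by hexokinase as glucose 6-phosphate and is converted stepwise to pyruvate, with phosphofructokinase as the main control point. Activated T cells send much of this pyruvate to lactate even where oxygen is present, and export the lactate through monocarboxylate transporters. The pentose phosphate pathway branches off at glucose 6-phosphate and yields NADPH and ribose 5-phosphate, a building block of nucleotides. PI3K, AKT and mTOR signals, MYC and the hypoxia-inducible factor HIF-1 are known to raise the expression of many of these genes.

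Most of the glycolytic genes that changed were lower with idelalisib. The genes that rose were Rpia and G6pdx of the pentose phosphate pathway, the monocarboxylate transporter gene Slc16a1 and Pfkfb1. Of the 37 tested genes, 18 were lower, 4 were higher and 15 did not pass the test (edgeR quasi-likelihood test on raw counts, adjusted p under 0.05 over all 14530 genes tested). Over all genes tested, 22.4% were lower, 22.2% higher and 44.6% changed in either direction, against 48.6%, 10.8% and 59.5% of the glucose genes. The median log2 fold change was -0.20 for the glucose genes and 0.01 for all genes tested. Abundant genes were lower more often in these data as a whole. CPM values here are a gene's counts scaled by the library total times a normalisation factor, the TMM factor of edgeR. These factors ran from 0.942 to 0.955 in control and from 1.05 to 1.06 in idelalisib libraries. CPM values are thus not scaled by library size alone. Among all 2417 genes that averaged at least 100 CPM, 42% were lower and 15.3% higher, and the median change on the log2 scale was -0.16. Of the 22 glucose genes at that level 14 were lower and 1 was higher, with a median of -0.32. The list as such was not tested.

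Total counts ran from 13372318 to 16770452 per library. By these totals, without the TMM factors, a gene at 1 CPM rests on about 13 to 17 reads. The CPM values of the 2 groups did not overlap for 22 of the 37 genes, against 54.6% of all genes tested. Markers of CD4+ T cells were present in every library, at a summed 3168 to 3206 CPM in control and 2936 to 3183 CPM in idelalisib libraries for 8 genes including Cd3e, Cd4 and Lck. Of the 8, Cd3e and Cd3g were higher (log2 fold change 0.25 and 0.35, edgeR adjusted p = 0.0171 and 0.00280). Lck was lower (log2 fold change -0.40, edgeR adjusted p = 0.00154), and 5 did not pass the test. Markers of B cells summed to 48.6 to 50.4 and 53.1 to 69.9 CPM, mostly from Ighm, and 4 of their 6 tested genes were higher with idelalisib. Myeloid markers summed to 17.1 to 19.2 and 10.9 to 14.7 CPM, almost all from Cd68, the only one tested, which was lower (log2 fold change -0.66 ± 0.16 SE, adjusted p = 0.00372 by edgeR). CD8, NK and erythroid markers each summed to under 10 CPM in every library, and Ncr1 had no counts. Among these Cd8a was higher (log2 fold change 0.91 ± 0.33 SE, adjusted p = 0.0360 by edgeR). The part of such cells in the results was not tested, and in bulk RNA fewer cells of a type cannot be told apart from less RNA per cell.

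**Figure D1:**
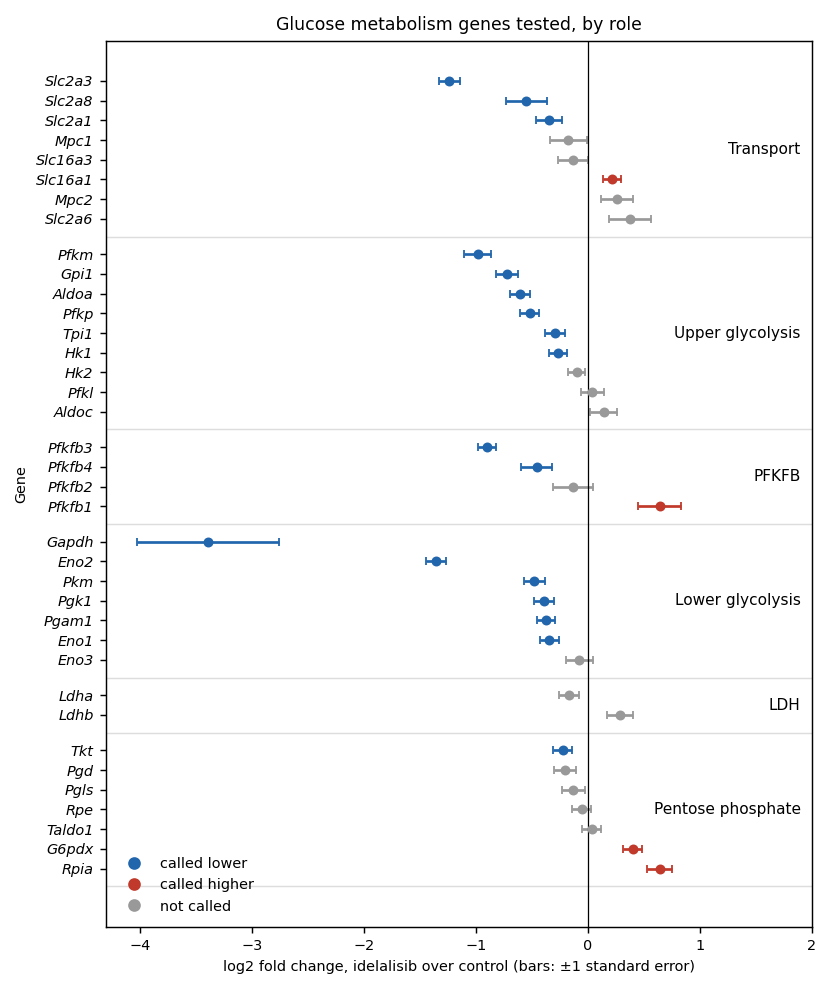
Log2 fold change of the 37 tested genes, idelalisib over control, grouped by role, with bars of 1 standard error from edgeR (3 libraries a group). Blue genes were called lower, red genes higher and grey genes did not pass the test. Within lower glycolysis 6 of 7 genes were lower, and the widest bar belongs to Gapdh.

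A promoter window for each of 6 of these genes is shown for reference beside the values below: those of Eno2, Pfkm and Pfkfb3, which were among the genes with the largest falls, those of Rpia and G6pdx, which rose, and that of Ldha, which did not pass the test. Pfkm has 4 RefSeq windows, and Pfkfb3 and Ldha have 2 each. For these the window nearest the gene start in the count table is shown. Which start site these cells used was not tested. Each window runs from 250 bases before to 50 bases after a RefSeq start site in GRCm38.p6 (the assembly of mm10) and is written 5′ to 3′ on the gene's strand. Capitals mark ACGTG or GCGTG on either strand, the core of the element that HIF factors bind. The 6-letter motif CACGTG, an E-box that MYC and MAX bind, contains ACGTG and so appears in capitals too.
Eno2 chr6:124769624-124769923 (- strand): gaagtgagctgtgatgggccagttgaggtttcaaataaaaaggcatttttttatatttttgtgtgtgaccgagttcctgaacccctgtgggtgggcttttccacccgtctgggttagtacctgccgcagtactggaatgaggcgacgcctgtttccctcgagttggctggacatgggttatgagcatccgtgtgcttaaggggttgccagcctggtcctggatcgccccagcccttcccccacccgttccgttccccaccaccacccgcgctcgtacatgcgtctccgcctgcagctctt
Pfkm chr15:98092339-98092638 (+ strand): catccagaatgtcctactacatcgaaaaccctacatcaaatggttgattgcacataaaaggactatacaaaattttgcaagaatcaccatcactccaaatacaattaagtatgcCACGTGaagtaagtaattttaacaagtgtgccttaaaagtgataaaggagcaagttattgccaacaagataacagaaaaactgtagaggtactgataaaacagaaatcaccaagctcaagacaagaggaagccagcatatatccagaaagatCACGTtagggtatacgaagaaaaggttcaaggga
Pfkfb3 chr2:11553880-11554179 (- strand): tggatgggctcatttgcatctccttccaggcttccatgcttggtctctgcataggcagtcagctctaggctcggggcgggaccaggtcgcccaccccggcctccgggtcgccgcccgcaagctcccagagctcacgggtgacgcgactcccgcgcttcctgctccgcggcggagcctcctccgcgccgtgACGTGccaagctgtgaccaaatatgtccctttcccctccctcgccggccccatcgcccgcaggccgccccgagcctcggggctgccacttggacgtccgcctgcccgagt
Rpia chr6:70792126-70792425 (- strand): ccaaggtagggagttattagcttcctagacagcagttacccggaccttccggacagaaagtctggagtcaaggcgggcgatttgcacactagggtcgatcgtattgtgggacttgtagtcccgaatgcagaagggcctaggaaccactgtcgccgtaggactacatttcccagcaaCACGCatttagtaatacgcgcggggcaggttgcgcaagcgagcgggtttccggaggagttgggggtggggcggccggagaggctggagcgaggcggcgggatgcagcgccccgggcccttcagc
G6pdx chrX:74428831-74429130 (- strand): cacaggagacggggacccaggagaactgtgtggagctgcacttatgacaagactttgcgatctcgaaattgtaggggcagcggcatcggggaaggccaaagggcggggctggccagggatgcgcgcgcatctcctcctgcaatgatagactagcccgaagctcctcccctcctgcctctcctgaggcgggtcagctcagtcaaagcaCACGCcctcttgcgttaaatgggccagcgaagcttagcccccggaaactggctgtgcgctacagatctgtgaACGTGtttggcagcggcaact
Ldha chr7:46845554-46845853 (+ strand): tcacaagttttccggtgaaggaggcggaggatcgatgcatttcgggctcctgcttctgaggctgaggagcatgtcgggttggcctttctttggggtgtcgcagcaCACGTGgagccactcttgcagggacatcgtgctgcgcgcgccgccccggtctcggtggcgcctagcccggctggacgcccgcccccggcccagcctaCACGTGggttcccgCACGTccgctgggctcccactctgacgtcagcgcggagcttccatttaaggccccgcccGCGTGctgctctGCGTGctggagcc

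RefSeq promoter windows were found for 38 of the 39 genes, all but Slc2a3. At least 1 window held ACGTG or GCGTG on either strand in 33 of them (86.8%), against 67.4% of the 9936 tested genes with a window and 46.7% of all 27025 genes in the table of promoters. The motif was in 14 of 17 lower genes, 4 of 4 higher genes and 14 of 15 genes that did not pass the test. The motif was thus common in all 3 classes. CACGTG was in 5 of 38 genes (13.2%), against 11.7% of the tested genes. The Ldha window shown held CACGTG at 2 places, and the Eno2 window held neither motif although Eno2 was among the genes with the largest falls. A match describes letters in a window and shows no binding.

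Of the 8 transporter genes for glucose, pyruvate and lactate, 3 were lower, 1 was higher and 4 did not pass the test, and the fall was largest for a glucose transporter. Lower genes were 37.5% of these and higher genes 12.5%, against 22.4% and 22.2% of all genes tested. Slc2a3 encodes GLUT3, a high-affinity glucose transporter (ENSMUSG00000003153, mm10 chromosome 6, 122727809 to 122801640). It was at 1056, 991 and 1009.6 CPM in controls, and 441, 378 and 479 CPM with idelalisib. Every idelalisib library was below every control library, and the mean fell from 1019 ± 33.6 to 433 ± 50.7 CPM (SD, n = 3 each), or 2.35-fold (log2 fold change -1.24 ± 0.09 SE, adjusted p = 2.27e-07 by edgeR). Slc2a1 encodes GLUT1, the basal glucose transporter of most cells and one induced in activated T cells. It was at 395, 367 and 369 CPM in controls, and 295, 239 and 353 CPM with idelalisib. The groups lay close without overlap, and the log2 fold change was -0.35 ± 0.12 SE (adjusted p = 0.0253 by edgeR). That call was lost in 5 of 14 alternative settings, among them each fit that left out a control library or idelalisib replicate 1 (adjusted p up to 0.0883) and scaling by library size alone (0.170). Slc2a8, the gene of the intracellular transporter GLUT8, was at 19.0, 15.4 and 13.6 CPM in controls, and 10.3, 8.5 and 13.9 CPM with idelalisib, a log2 fold change of -0.55 ± 0.18 SE (adjusted p = 0.0256 by edgeR). Its groups overlapped, and the call was lost in 5 of the same 14 settings, among them those that left out replicate 1 or replicate 2 of either group (adjusted p up to 0.138). Slc2a6, the gene of the lysosomal transporter GLUT6, was at 6.72 ± 0.699 and 8.72 ± 1.69 CPM and did not pass the test (log2 fold change 0.38 ± 0.19 SE, adjusted p = 0.114 by edgeR).

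On a scale per kilobase of gene, which allows genes to be compared, Slc2a3 was at 141 ± 4.64 without and 59.7 ± 7.0 with idelalisib (CPM per kilobase, SD, n = 3 each). Slc2a1 was at 107 ± 4.49 without and 84.4 ± 16.3 with idelalisib (CPM per kilobase, SD, n = 3 each). Of the length-scaled counts of both genes, Slc2a1 held 43.3 ± 0.301% without and 58.4 ± 1.9% with idelalisib (SD, n = 3 each). On this scale Slc2a3 was ahead in all 3 control libraries and Slc2a1 in all 3 idelalisib libraries. That order rests on the deposited gene lengths, 7245 bases for Slc2a3 and 3506 for Slc2a1, which count every annotated exon. In CPM without length scaling Slc2a3 stayed higher in every library. An exact two-sided permutation test of the Slc2a1 share gave p = 0.10, the smallest value that 3 against 3 libraries allow, and adjusted over 20 isoenzyme shares p = 0.125. No share can pass a threshold of 0.05 in this design.

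In upper glycolysis, from hexokinase to triose phosphate isomerase, 6 of 9 tested genes were lower, none was higher and 3 did not pass the test, with a median log2 fold change of -0.29. That was 66.7% lower, against 22.4% of all genes tested and 42% of genes averaging at least 100 CPM. All tested genes of this part but Pfkm averaged at least 100 CPM. Of the 2 tested hexokinases, which trap glucose in the cell, 1 passed the test. Hk1 fell from 567 ± 10.3 to 472 ± 30.8 CPM (SD, n = 3 each), a log2 fold change of -0.27 ± 0.08 SE (adjusted p = 0.0120 by edgeR), with an adjusted p of 0.0589 without control replicate 1 and, scaled by library size alone, a log2 fold change of -0.11 (adjusted p = 0.239). Hk2, the inducible hexokinase bound to mitochondria, was at 326 ± 5.47 and 305 ± 16.0 CPM and did not pass (log2 fold change -0.10 ± 0.08 SE, adjusted p = 0.309 by edgeR). Gpi1, which converts glucose 6-phosphate to fructose 6-phosphate (ENSMUSG00000036427, mm10 chromosome 7, 34201330 to 34230336), was at 1277, 1236 and 1212 CPM in controls, and 751, 637 and 866 CPM with idelalisib. It was lower in every idelalisib library than in any control library (log2 fold change -0.72 ± 0.10 SE, adjusted p = 5.76e-05 by edgeR).

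The 3 phosphofructokinase genes, which encode the muscle, platelet and liver type subunits of the committing enzyme of glycolysis, did not all change: 2 were lower. Pfkm, the muscle type (ENSMUSG00000033065, mm10 chromosome 15, 98092589 to 98132451), was at 139, 99.1 and 140.5 CPM in controls, and 61.2, 63.2 and 66.8 CPM with idelalisib. Control replicate 2 was the lowest control library, still above every idelalisib library (log2 fold change -0.98 ± 0.12 SE, adjusted p = 2.48e-05 by edgeR). Pfkm overlaps Senp1 on the opposite strand over 1156 bases, and Senp1 had a log2 fold change of -0.09 (edgeR adjusted p = 0.411). Pfkp, the platelet type, was at 1326, 1323 and 1261 CPM in controls, and 1002, 799.5 and 926 CPM with idelalisib. The groups did not overlap (log2 fold change -0.52 ± 0.09 SE, adjusted p = 0.000321 by edgeR). Pfkl, the liver type, was at 236 ± 4.63 and 243 ± 38.7 CPM and did not pass the test (log2 fold change 0.04 ± 0.10 SE, adjusted p = 0.765 by edgeR). Shares of length-scaled counts rest on the deposited gene lengths, here 6675 bases for Pfkl, 3340 for Pfkm and 13401 for Pfkp. Of the length-scaled counts of the 3 genes, Pfkl made up 20.8 ± 0.913% without and 29.4 ± 2.43% with idelalisib (SD, n = 3 each). Pfkm made up 22.1 ± 3.53% without and 15.6 ± 1.59% with idelalisib (SD, n = 3 each), and Pfkp 57.1 ± 2.63% and 55.0 ± 2.7%. The shares of Pfkl and Pfkm did not overlap between groups (exact permutation p = 0.10 and 0.10), while those of Pfkp did (exact permutation p = 0.400).

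Aldoa, which splits fructose bisphosphate into triose phosphates (ENSMUSG00000030695, mm10 chromosome 7, 126795234 to 126800751), was among the most abundant genes of the group. It was at 3182, 3359 and 3175 CPM in controls, and 2023, 1966 and 2405 CPM with idelalisib. All idelalisib libraries lay below the control libraries (log2 fold change -0.60 ± 0.09 SE, adjusted p = 8.81e-05 by edgeR). A second, shorter entry named Aldoa lies beside it on chromosome 7 and had 16 to 45 counts per library, and the larger entry was used. Aldoc, a related aldolase gene, was at 103 ± 6.99 and 114 ± 21.9 CPM and did not pass the test (log2 fold change 0.14 ± 0.12 SE, adjusted p = 0.352 by edgeR), although it was called higher without idelalisib replicate 2, at 0.28 (edgeR adjusted p = 0.0132). Per length, Aldoc held 2.76 ± 0.166% without and 4.52 ± 0.417% with idelalisib (SD, n = 3 each) of both aldolases. Tpi1, which interconverts the triose phosphates, had a log2 fold change of -0.29 ± 0.09 SE (adjusted p = 0.0195 by edgeR), and it was no longer called when control replicate 1, control replicate 2 or idelalisib replicate 1 was left out (adjusted p up to 0.0779) and with scaling by library size alone (0.223).

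**Figure D2:**
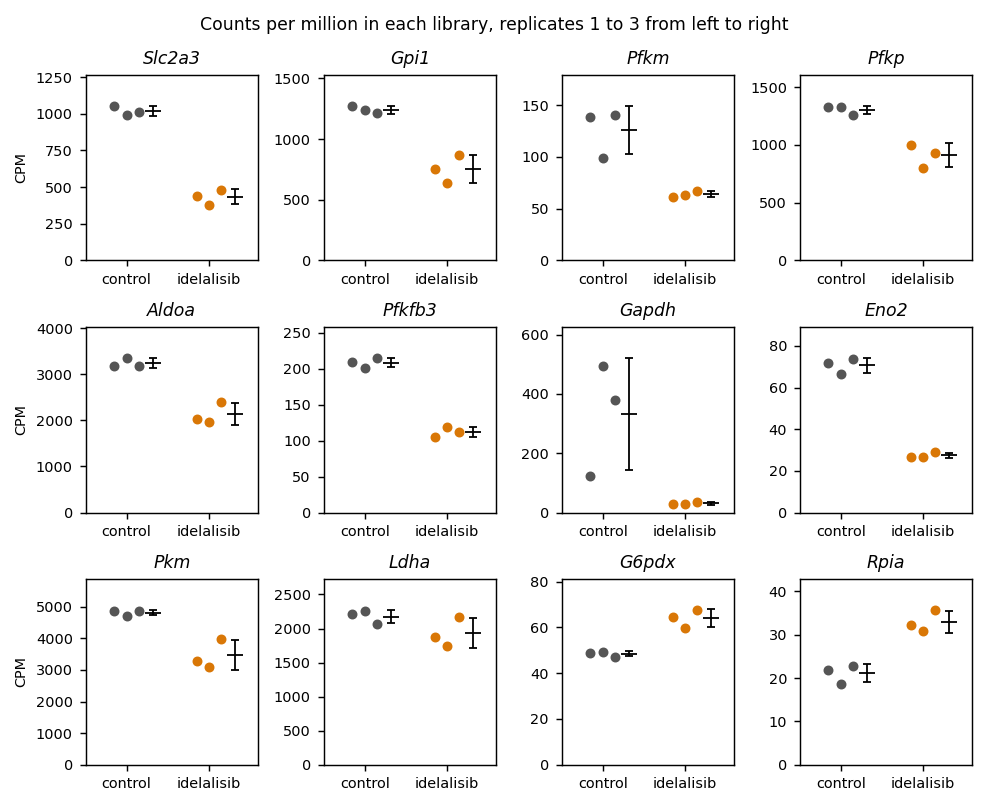
CPM in each library for 12 genes of glucose metabolism, with control libraries in grey and idelalisib libraries in orange, from replicate 1 to 3 within each group. The black mark is the mean with its SD (n = 3). The groups are apart in every panel other than Ldha, and the Gapdh control libraries spread from 122 to 493 CPM.

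The PFKFB genes set the level of fructose 2,6-bisphosphate, an activator of phosphofructokinase. Pfkfb3, whose enzyme favours its synthesis (ENSMUSG00000026773, mm10 chromosome 2, 11471433 to 11554077), was at 209, 201.7 and 215 CPM in controls, and 105, 119 and 113 CPM with idelalisib. The 2 groups were far apart and each was tight, with a fall from 209 ± 6.79 to 112 ± 6.99 CPM (SD, n = 3 each; log2 fold change -0.90 ± 0.08 SE, adjusted p = 1.33e-06 by edgeR). Pfkfb4 was lower by a smaller step, from 23.7 ± 0.88 to 17.2 ± 3.39 CPM (SD, n = 3 each; log2 fold change -0.46 ± 0.14 SE, adjusted p = 0.0171 by edgeR), a call lost without control replicate 2 or 3 (edgeR adjusted p = 0.0534 and 0.0576) and with scaling by library size alone (0.0903). Pfkfb2 did not pass the test (log2 fold change -0.13 ± 0.18 SE, adjusted p = 0.568 by edgeR). Pfkfb1 rose at a low level. It was at 3.94, 4.23 and 4.0 CPM in controls, and 7.04, 6.23 and 5.73 CPM with idelalisib, or 56 to 107 counts per library (log2 fold change 0.64 ± 0.19 SE, adjusted p = 0.0143 by edgeR). Without control replicate 1 or idelalisib replicate 1 its adjusted p was 0.0567 and 0.0520. Its neighbour Apex2, which overlaps it on the opposite strand, had a log2 fold change of -0.21 (edgeR adjusted p = 0.261). Per length, Pfkfb3 remained the leading gene of the 4, at 80.0 ± 0.79% without and 71.0 ± 4.03% with idelalisib (SD, n = 3 each), while Pfkfb1 held 2.93 ± 0.165% without and 7.57 ± 0.832% with idelalisib (SD, n = 3 each). For both shares the groups did not overlap (exact permutation p = 0.10 each).

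Lower glycolysis, from GAPDH to pyruvate kinase, held many of the lower genes. There 6 of 7 genes were lower (85.7%), and the median log2 fold change was -0.39. Lower genes were 22.4% of all genes tested and 42% of those averaging at least 100 CPM, as all here but Eno2 and Eno3 did. Eno2, the gamma enolase also called neuron-specific enolase (ENSMUSG00000004267, mm10 chromosome 6, 124760053 to 124769673), was at 72.0, 66.4 and 73.5 CPM in controls, and 26.8, 26.8 and 28.9 CPM with idelalisib. The groups were tight and far apart (log2 fold change -1.36 ± 0.09 SE, adjusted p = 9.25e-08 by edgeR). Eno1, the main enolase, fell from 2970.0 ± 56.6 to 2343 ± 282 CPM (SD, n = 3 each; log2 fold change -0.34 ± 0.09 SE, adjusted p = 0.00609 by edgeR), and Eno3, the muscle type, did not pass (log2 fold change -0.07 ± 0.12 SE, adjusted p = 0.649 by edgeR). Eno2 was thus a minor enolase here: per length it held 2.59 ± 0.155% without and 1.3 ± 0.0966% with idelalisib (SD, n = 3 each) of the 3 genes, and Eno1 held 95.4 ± 0.288% without and 96.2 ± 0.149% with idelalisib (SD, n = 3 each).

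The other abundant enzymes of this stretch fell by similar small steps. Pgk1, the first enzyme of glycolysis to yield ATP, fell from 2743 ± 46.3 to 2093 ± 224 CPM (SD, n = 3 each; log2 fold change -0.39 ± 0.09 SE, adjusted p = 0.00209 by edgeR). Pgam1, a phosphoglycerate mutase, fell from 696 ± 17.0 to 537 ± 46.6 CPM (SD, n = 3 each; log2 fold change -0.37 ± 0.08 SE, adjusted p = 0.00203 by edgeR). Pkm encodes pyruvate kinase, which makes pyruvate and ATP, and had the highest CPM of the whole group at 4860.4, 4717 and 4870.5 CPM in controls, and 3291, 3099 and 3995 CPM with idelalisib. Its 3 idelalisib libraries were all below the control libraries (log2 fold change -0.48 ± 0.09 SE, adjusted p = 0.000900 by edgeR). Of the 50-base words of the Pgk1, Pgam1, Eno1 and Pkm transcripts, 53.9%, 36.2%, 26.0% and 25.8% also occur in other annotated genes, so the counting of their reads is less certain.

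Gapdh, the classical reference gene of glycolysis, gave the largest fall, with a wide spread among controls (ENSMUSG00000057666, mm10 chromosome 6, 125161715 to 125166467). It was at 122, 493 and 380.3 CPM in controls, and 29.9, 27.9 and 36.7 CPM with idelalisib. Control replicate 1 had less than the other two control libraries and still more than any idelalisib library. The log2 fold change was -3.39 ± 0.63 SE (adjusted p = 0.0151 by edgeR), and the adjusted p was 0.0536 without control replicate 3 and 0.0598, 0.0545 and 0.0546 without idelalisib replicate 1, 2 and 3. Per length Gapdh was at 80.3 ± 46.0 without and 7.62 ± 1.11 with idelalisib (CPM per kilobase, SD, n = 3 each), well below Pgk1 at 1222 ± 20.6 without and 932 ± 99.9 with idelalisib (CPM per kilobase, SD, n = 3 each). Parts of its sequence (25.1% of 50-base words) occur in 223 other annotated genes, among them Gm7336 and Gm4691. Their summed counts were 2963, 2850 and 2320 in the control and 2031, 1528 and 3013 in the idelalisib libraries. How reads with several matches were counted is not known, so Gapdh reads may also be missing from its counts. A retained-intron transcript of Gapdh in GENCODE M21 is 3289 bases long, and the deposited gene length is 4133 bases. The part of such copies and of this length in the low level and the fall of Gapdh was not tested.

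A pair of annotated loci inside glycolytic genes fell by more than their hosts. Both were chosen after their values were seen. AC160637.1, a locus listed in the annotation as awaiting experimental evidence, lies on the strand of Pkm at mm10 chromosome 9, 59672814 to 59676700. This stretch spans the 2 alternative Pkm exons of 167 bases each, at 59675029 to 59675195 in transcript Pkm-202 and 59675568 to 59675734 in Pkm-201, and the introns around them. AC160637.1 had 8638, 7660 and 6620 counts in the control and 2432, 2365 and 2741 with idelalisib (log2 fold change -1.63 ± 0.08 SE, adjusted p = 7.49e-09 by edgeR). Set against the counts of Pkm in the same library, that was 10.5 ± 0.724% without and 4.79 ± 0.656% with idelalisib (SD, n = 3 each; exact permutation p = 0.10). Gm26762, a long noncoding gene, lies within Gpi1 on the opposite strand at chromosome 7, 34224755 to 34230236. It had 310, 241 and 223 counts in the control and 33, 18 and 30 with idelalisib (log2 fold change -3.28 ± 0.20 SE, adjusted p = 5.19e-08 by edgeR). Against Gpi1 this was 1.37 ± 0.126% and 0.232 ± 0.0495% (exact permutation p = 0.10). AC160637.1 lies on the same strand as Pkm, and for Gm26762 the strand setting is not known. For neither locus can its own reads thus be told apart from those of its host, and for AC160637.1 this includes the 2 alternative exons.

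For the last steps, from pyruvate to lactate and out of the cell, 1 gene passed the test, by a narrow margin. Ldha, which makes lactate from pyruvate (ENSMUSG00000063229, mm10 chromosome 7, 46841475 to 46855627), was at 2210.1, 2252 and 2067 CPM in controls, and 1882, 1746 and 2173 CPM with idelalisib. The groups overlapped, and the log2 fold change was -0.17 ± 0.09 SE (adjusted p = 0.131 by edgeR). Its approximate 95% interval, 1.96 standard errors to each side, ran from -0.34 to 0.0026. Without idelalisib replicate 3, the highest of the idelalisib libraries, Ldha was called lower, at -0.25 (edgeR adjusted p = 0.00622). Ldhb, whose product forms the heart type enzyme, was at 21.6 ± 1.6 and 26.4 ± 2.63 CPM and did not pass (log2 fold change 0.29 ± 0.12 SE, adjusted p = 0.0570 by edgeR). Per length, Ldha held 97.9 ± 0.134% without and 97.2 ± 0.239% with idelalisib (SD, n = 3 each) of both genes. Slc16a3, the gene of the lactate exporter MCT4, was at 292, 268 and 261 CPM in controls, and 245, 195 and 309 CPM with idelalisib. The idelalisib libraries ran from below to above all control libraries (log2 fold change -0.13 ± 0.14 SE, adjusted p = 0.461 by edgeR). Slc16a1, which encodes the monocarboxylate transporter MCT1, was at 99.4, 94.3 and 94.998 CPM in controls, and 111, 119.6 and 105 CPM with idelalisib. The groups did not overlap, yet the rise was small (log2 fold change 0.22 ± 0.08 SE, adjusted p = 0.0460 by edgeR), and the call was lost in 9 of 14 alternative settings, including DESeq2 (adjusted p = 0.0748) and the fits without any 1 library other than idelalisib replicate 3 (up to 0.150). Mpc1 and Mpc2, which form the carrier of pyruvate into mitochondria, did not pass, at -0.17 ± 0.16 SE (adjusted p = 0.414 by edgeR) and 0.26 ± 0.14 SE (adjusted p = 0.140 by edgeR).

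**Figure D3:**
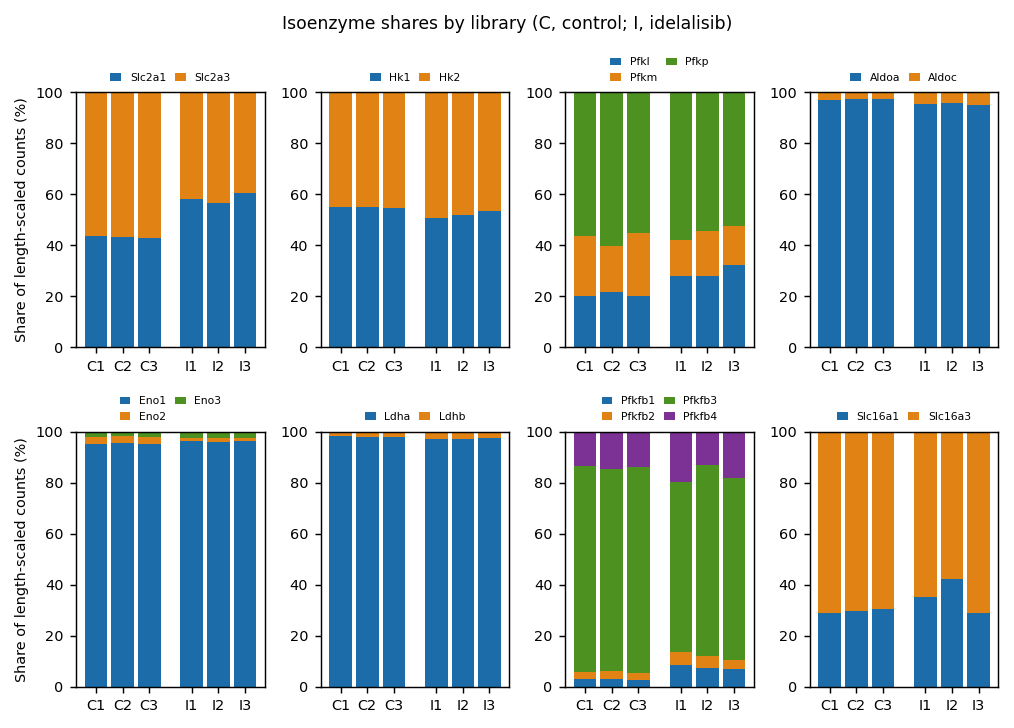
Share of length-scaled counts held by each gene within 8 families, 1 bar per library (C1 to C3 control, I1 to I3 idelalisib). The largest shift is between Slc2a1 and Slc2a3, where Slc2a1 goes from 43.3% to 58.4% on average, while Aldoa, Eno1 and Ldha keep over 95% of their families in every library.

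The pentose phosphate pathway held 2 of the 4 genes that rose. Of its 7 genes, 2 were higher, 1 was lower and 4 did not pass the test (higher in 22.2% and lower in 22.4% of all genes tested), with a median log2 fold change of -0.05. Its difference from glycolysis was not tested. Rpia, which makes ribose 5-phosphate in the non-oxidative branch (ENSMUSG00000053604, mm10 chromosome 6, 70765720 to 70792232), was at 21.961, 18.7 and 22.8 CPM in controls, and 32.3, 30.9 and 35.7 CPM with idelalisib. Every idelalisib library was above every control library, a rise from 21.2 ± 2.17 to 33.0 ± 2.49 CPM (SD, n = 3 each; log2 fold change 0.64 ± 0.11 SE, adjusted p = 0.000463 by edgeR). G6pdx, the rate-limiting enzyme that produces the first NADPH of the pathway (ENSMUSG00000031400, mm10 chromosome X, 74409483 to 74429194), was at 48.8, 49.4 and 47.2 CPM in controls, and 64.6, 59.9 and 67.6 CPM with idelalisib. The groups were again apart (log2 fold change 0.40 ± 0.09 SE, adjusted p = 0.00175 by edgeR). G6pdx overlaps Ikbkg on the opposite strand along its whole length, and Ikbkg also rose, with a log2 fold change of 0.44 (edgeR adjusted p = 0.000987). Without a known strand setting the reads of the 2 genes cannot be told apart where they overlap.

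Of the other enzymes of the pathway 1 passed the test. Pgls and Pgd, which follow G6pdx in the oxidative branch, had log2 fold changes of -0.13 ± 0.10 SE (adjusted p = 0.326 by edgeR) and -0.20 ± 0.10 SE (adjusted p = 0.0977 by edgeR). Rpe and Taldo1 of the non-oxidative branch were at -0.05 ± 0.09 SE (adjusted p = 0.634 by edgeR) and 0.03 ± 0.09 SE (adjusted p = 0.769 by edgeR). Tkt, the transketolase that links the pathway back to glycolysis, was lower, from 427 ± 3.43 to 366 ± 38.4 CPM (SD, n = 3 each; log2 fold change -0.22 ± 0.08 SE, adjusted p = 0.0445 by edgeR). Its call was lost in 9 of 14 alternative settings, among them the fits without any 1 library other than idelalisib replicate 3 (up to 0.133) and scaling by library size alone (0.508). Rpia and G6pdx kept their calls in all 14.

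Summed over the 37 tested genes, the group stood at 25072, 25318 and 24778 CPM in controls, and 18049.8, 16666 and 20721 CPM with idelalisib. The control libraries were nearly level, while idelalisib replicate 2 was lowest and replicate 3 highest. As a share of all raw counts the 39 genes took up 2.37 ± 0.0357% without and 1.95 ± 0.204% with idelalisib (SD, n = 3 each). Within the idelalisib group, replicate 2 was the lowest library for 26 of 37 genes and replicate 3 the highest for 27. Over all genes tested these shares were 38.2% and 34.8%, so the glucose genes of a library tended to stand high or low together. Without idelalisib replicate 2 the counts were 16 lower and 6 higher, and without replicate 3 they were 20 lower and 4 higher. The number called higher was 2 without control replicate 1 and 2 without idelalisib replicate 1.

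**Figure D4:**
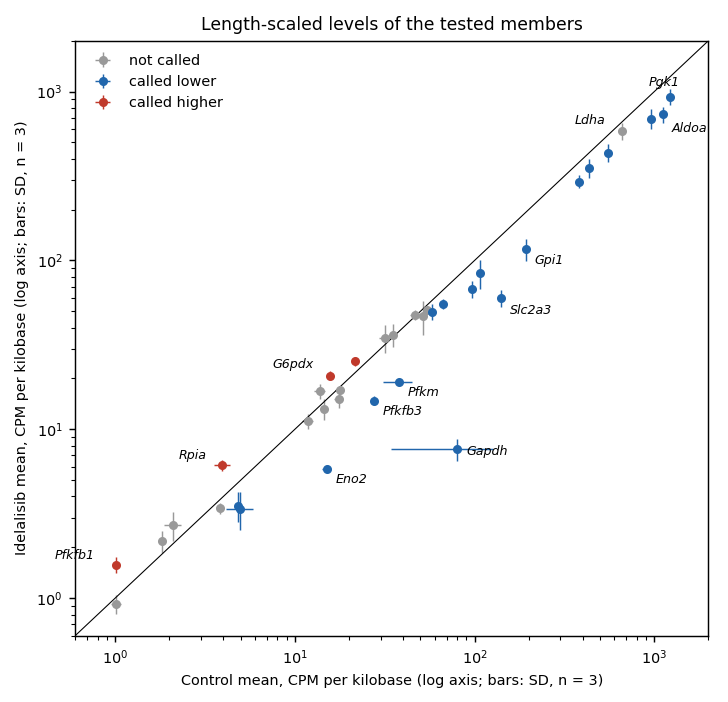
Mean level per kilobase of the 37 tested genes in control (horizontal) and idelalisib libraries (vertical), both on log axes, with bars of 1 SD (n = 3). The line marks equal levels. Pgk1, Aldoa, Pkm, Ldha and Eno1 were the 5 highest genes in both groups, and Gapdh, Eno2, Slc2a3, Pfkm and Pfkfb3 lie furthest below the line.

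By length-scaled level in the control libraries, Pgk1 (1222 ± 20.6 CPM per kilobase), Aldoa (1113 ± 35.7) and Pkm (963 ± 17.1) led, followed by Ldha and Eno1. In the idelalisib libraries the levels of Aldoa (732 ± 81.9) and Pkm (692 ± 94.3) lay within their spread of each other. Counting every annotated exon in the length understates the level of genes with many rare exons. The split of calls depended on scaling. Normalised by library size alone, 11 genes were lower and 7 higher, so 61.1% of calls were on the lower side against 81.8%. Under that scaling the median over all genes tested went from 0.01 to 0.16, and the median of the glucose genes stood -0.21 from it, against -0.21 with TMM factors. A change of scaling moves the log2 fold changes of all genes by nearly the same amount. The distance between the 2 medians could therefore hardly change, and its being equal is no evidence for either scaling or for the result.

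Other genes around glycolysis were read from lists chosen by function and did not show one common direction. Beside them stands the background of 22.2% of genes higher and 22.4% lower. Of 14 tested genes for other hexose transporters, isoenzymes and transporter partners, 4 were higher and 4 lower. Among those with the largest changes were Slc2a10, a GLUT family transporter gene, at -1.55, and Ldhd, which encodes a D-lactate dehydrogenase, at 1.43, both at low levels. Bsg encodes basigin, which carries MCT1 and MCT4 to the cell surface, and it fell from 623 ± 31.7 to 429 ± 55.6 CPM (SD, n = 3 each; log2 fold change -0.54 ± 0.09 SE, adjusted p = 0.000424 by edgeR; chosen after its values were seen). Of 8 other pentose phosphate and ribose genes 3 were higher and 0 lower. They were Shpk, a sedoheptulose kinase gene, at 0.77, and Prpsap2 and Prps2, which serve the synthesis of phosphoribosyl pyrophosphate from ribose 5-phosphate, at 0.63 and 0.34. Without control replicate 3 the adjusted p of Prps2 was 0.0527, and without control replicate 1 that of Slc2a10 was 0.0576 (edgeR).

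Around pyruvate dehydrogenase, the entry of pyruvate into the citric acid cycle, 4 of 12 genes were higher and 0 lower. Pcx, pyruvate carboxylase, which feeds oxaloacetate into the cycle, rose from 40.8 ± 2.46 to 82.8 ± 11.8 CPM (SD, n = 3 each; log2 fold change 1.02 ± 0.11 SE, adjusted p = 5.40e-06 by edgeR). Pdk2, a kinase that inhibits pyruvate dehydrogenase, had a log2 fold change of 1.15 at a low level, and Pdhx, a structural subunit, 0.39. The Pdhx call was lost in 6 of 14 alternative settings, among them DESeq2 and each fit that left out a control library or idelalisib replicate 1 (adjusted p up to 0.0927). Of 22 genes of glycogen and hexose interconversion 1 was higher and 4 lower, led by Gnpnat1 of the hexosamine pathway at -2.17 and Galt of the galactose pathway at -0.73. Without idelalisib replicate 2, 11 of these genes were called. Of 14 genes for the redox shuttles and other NADPH sources 4 were higher and 1 lower. The mitochondrial aspartate-glutamate carrier gene Slc25a13 and Idh1, an isocitrate dehydrogenase that makes cytosolic NADPH, were at 1.03 and 0.68, and Got1, the cytosolic aspartate aminotransferase of the malate-aspartate shuttle, at -0.72.

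Among 18 tested regulators of these genes 3 were higher and 6 lower. Txnip, which promotes the removal of glucose transporters from the surface, was at 63.6, 59.8 and 59.3 CPM in controls, and 216, 127 and 188 CPM with idelalisib. Every idelalisib library was above every control library (log2 fold change 1.54 ± 0.17 SE, adjusted p = 8.33e-05 by edgeR), and its relative Arrdc4 rose from 2.93 ± 0.111 to 8.66 ± 1.92 CPM (SD, n = 3 each; log2 fold change 1.57 ± 0.22 SE, adjusted p = 6.11e-05 by edgeR). Epas1, which encodes HIF-2 alpha, was at 6.11 ± 1.30 and 3.02 ± 0.395 CPM, with a log2 fold change of -1.02 ± 0.23 SE (adjusted p = 0.00240 by edgeR). The following genes were chosen after their values were seen. Arnt, the partner of the HIF alpha subunits, fell from 172 ± 4.58 to 118 ± 6.56 CPM (SD, n = 3 each; log2 fold change -0.54 ± 0.08 SE, adjusted p = 9.16e-05 by edgeR). Hif1a fell from 1333 ± 41.5 to 1120.0 ± 106 CPM (SD, n = 3 each; log2 fold change -0.25 ± 0.08 SE, adjusted p = 0.0245 by edgeR), a call lost in 6 of 14 alternative settings, among them each fit that left out a control library or idelalisib replicate 1 (adjusted p up to 0.104) and scaling by library size alone (0.360). Egln3, a HIF prolyl hydroxylase gene and itself a HIF target, rose from 659 ± 20.6 to 993 ± 96.1 CPM (SD, n = 3 each; log2 fold change 0.59 ± 0.08 SE, adjusted p = 8.32e-05 by edgeR). Of the other HIF prolyl hydroxylase genes, Egln1 fell from 324 ± 17.2 to 214 ± 31.5 CPM (SD, n = 3 each; log2 fold change -0.60 ± 0.10 SE, adjusted p = 0.000317 by edgeR), and Egln2 did not pass the test (log2 fold change 0.07 ± 0.12 SE, adjusted p = 0.650 by edgeR). Myc was at 222 ± 17.0 and 258 ± 18.4 CPM and did not pass the test (log2 fold change 0.22 ± 0.09 SE, adjusted p = 0.0530 by edgeR), although 5 of 14 alternatives called it higher, among them the fits without idelalisib replicate 1 or 3. The remaining lower regulators were Max (log2 fold change -0.48 ± 0.09 SE, adjusted p = 0.000600 by edgeR) and Vhl (log2 fold change -0.31 ± 0.09 SE, adjusted p = 0.0106 by edgeR).

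Targets of HIF outside glycolysis were lower in 15 of 16 cases (93.8%) and higher in 0, with a median log2 fold change of -0.91. Lower genes were 22.4% of all genes tested and 42% of those averaging at least 100 CPM, as most of these targets did. The exception on this list was Car9, at a low level, which did not pass the test (log2 fold change 0.46 ± 0.30 SE, adjusted p = 0.234 by edgeR). Egln3, the HIF target that rose, was listed with the regulators and is not among the 16. The genes with the largest falls were Adm, P4ha2 and Ndrg1, at -2.32, -1.58 and -1.48. These genes share the libraries of the glucose genes and were listed with earlier results of these data known, so they are no independent evidence of a direction. The glucose genes had a median of -0.20 and lay between -3.39 for Gapdh and 0.64 for Rpia. The difference between the 2 lists was not tested.

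**Figure D5:**
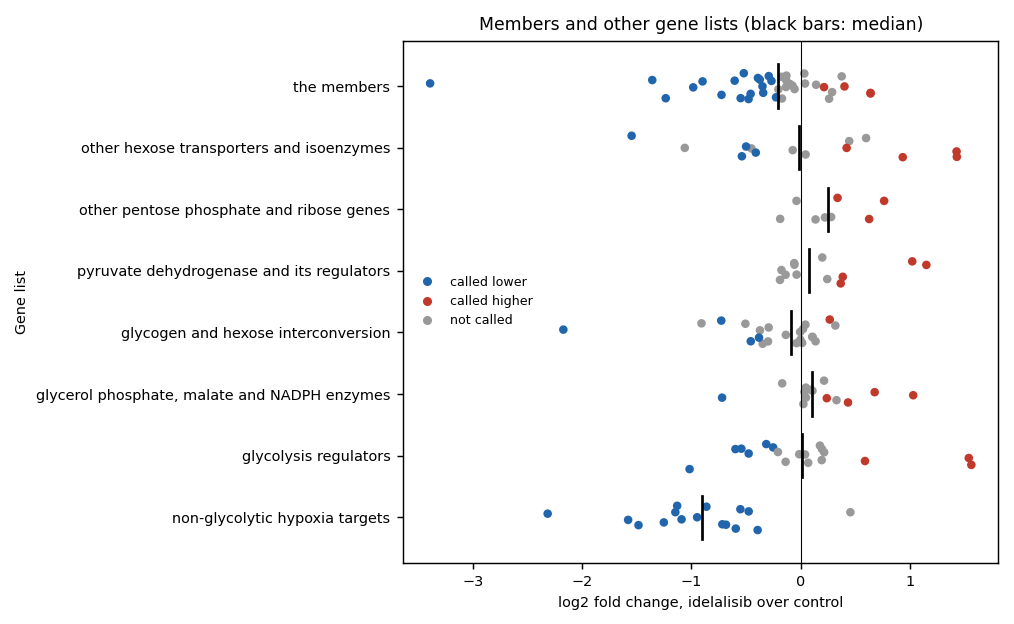
Log2 fold change, idelalisib over control, of every tested gene in the glucose group and in 7 other lists, coloured by call, with a black bar at the median of each list. The median is -0.20 for the glucose genes, -0.91 for the hypoxia targets and 0.25 for the other pentose phosphate and ribose genes.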

How the data were processed

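RNA of 3 control and 3 idelalisib cultures was sequenced. The deposited table holds raw counts per gene, which the authors made with fastp, HISAT2 2.0.5 and featureCounts 1.5.0-p3 on mm10, per the submitters' processing notes. How strand and reads with several matches were handled, and which annotation was counted, were not given in the sources used here. The table also gives a gene length, used for CPM per kilobase.

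Counts were fitted in R 4.3.3 with edgeR 4.0.16 (TMM factors, filterByExpr with a minimum count of 10 and total of 15, robust quasi-likelihood F test), with Benjamini-Hochberg adjustment over 14530 genes and a threshold of 0.05. The fit was also run on simulated data with far fewer changed genes than were called here, about equally up and down. That run therefore does not bear on data with as many changes as these. Standard errors were derived from the F statistic. Isoenzyme shares were compared by exact two-sided permutation tests over libraries. Alternatives were other scalings, DESeq2 1.42.0, limma-voom 3.58.1, other filters, a replicate block and leaving out each library.

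The glucose genes, the other lists and the tests were chosen with earlier results of these data known. Every glucose gene is accounted for, with values in each library for those called at 5 CPM or more and a log2 fold change of at least 0.5 in size, or called higher. Of each other list, up to 3 called genes with the largest changes and at least 1 CPM are named. Some genes that this rule picks are not reported here. Promoters come from RefSeq tables, and transcripts and exons from the GENCODE M21 annotation. Overlaps were taken from the gene coordinates in the deposited table. No 2 libraries agreed within sampling noise.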

Additional observations from a re-analysis of the deposited data

How the results depend on the processing

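Of the 22 glucose genes called, 12 were called in all 14 alternatives and 10 were lost in at least 1 (Slc2a1, Slc2a8, Hk1, Pfkfb1, Pfkfb4, Tpi1, Gapdh, Eno1, Slc16a1 and Tkt). Of the genes not called 8 passed in at least 1: Slc2a6, Aldoc, Ldhb and Pgd without idelalisib replicate 2, Ldha, Slc16a3 and Pgls without idelalisib replicate 3, and Mpc2 with scaling by library size alone. Scaling by library size alone moved the counts to 7 higher and 11 lower, the median log2 fold change to -0.048, and the genes called to 5 in the other pentose phosphate and ribose list and to 8 in the glycerol phosphate, malate and NADPH list, from 3 and 5. Under it Hk2 (0.057), Pfkfb2 (0.021), Eno3 (0.080), Slc16a3 (0.021), Pgls (0.025), Rpe (0.10) and Senp1 (0.067) changed sign, and Slc2a1, Slc2a8, Hk1, Pfkfb4, Tpi1, Tkt and Eno1 lost their calls (Eno1 adjusted p = 0.0812). Sign also changed for Pfkl (-0.070 without idelalisib replicate 3, up to 0.16 without replicate 2), for Slc16a3 (0.024 without idelalisib replicate 2, down to -0.30 without replicate 3) and for Taldo1 (-0.019 without control replicate 1, up to 0.10); none of these passed the test with all libraries. Leaving out 1 library gave 2 to 6 glucose genes higher, 13 to 20 lower, medians from -0.30 to -0.15 and 4 to 11 genes called in the glycogen and hexose list.

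Same-numbered libraries did not deviate together (correlations of 0.08, -0.13 and -0.10), so the numbers were not taken to pair them. With the replicate number as a block, 3 glucose genes were higher and 16 lower (median -0.21), over 2910 higher and 3051 lower genes in all, and edgeR adjusted p became 0.0579 for Gapdh, 0.0802 for Slc16a1 and 0.0625 for Tkt. The block changed no other call among the 22. The cause of these shifts was not tested. Genes near 1 CPM rest on about 13 to 17 reads a library, as taken from raw totals without the TMM factors.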
